A study of Mus musculus with 16 samples.

Results

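Cdkn1a, Mdm2, Ccng1, Eda2r, Zmat3, Phlda3, Bax, Sesn1, Aen and Trp53inp1 are transcribed under the control of p53 in many mouse tissues. These 10 genes were chosen by name out of the 54532 genes of the count table. They were followed in 16 jejunal enteroid cultures, in which they serve as a transcript readout of a p53 response after Cre recombinase had been switched on in the dish. Enteroids are epithelial cysts grown from intestinal crypts. Each of the 4 groups held 4 cultures from separate mice. Whether any mouse gave cultures to several groups is not given in the sources used here. The MYO5BΔIEC enteroids came from adult Vil1-CreERT2;Myo5b flox/flox mice. The MYO5B(G519R) enteroids came from Vil1-CreERT2;Myo5b flox/G519R mice, in which 1 allele carries the G519R mutation of microvillus inclusion disease. Both received 1 µM 4-OH-tamoxifen for 24 h, which lets the Cre fusion protein enter the nucleus, and were then moved to a differentiation medium. A further group of induced MYO5BΔIEC enteroids received 100 nM Compound-1, an agonist of the lysophosphatidic acid receptor LPAR5, for 2 days in that medium, and the MYO5BΔIEC group without it received vehicle. The control enteroids carried the same Vil1-CreERT2;Myo5b flox/flox alleles according to the methods and are called healthy littermates elsewhere in the study. The records list 4-OH-tamoxifen for the MYO5BΔIEC and MYO5B(G519R) enteroids and not for the control, and the methods name an ethanol vehicle for uninduced enteroids.

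No group had active Cre and intact MYO5B, so 4-OH-tamoxifen, Cre activity and the loss of MYO5B cannot be told apart in any comparison with control. Vil1-CreERT2 acts in epithelial cells, and a bulk culture does not separate more RNA per cell from more cells that express a gene.

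p53 is a transcription factor that is held at a low level by the ubiquitin ligase MDM2. DNA breaks and other stresses stop its degradation, so that it acts mainly through its protein level and less through its mRNA. Its targets halt the cell cycle, promote repair or trigger apoptosis, and several of them, Mdm2 among them, feed back on p53 itself. In the intestinal crypt this program is best known from irradiation.

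All libraries held between 27804968 and 40101729 counted reads, so that 3 counts, the limit that a count of 0 allows, corresponded to 0.0736 to 0.111 CPM (counts scaled to the library size). All 7 epithelial markers lay above 1 CPM in each group. None of the 8 fibroblast and 5 endothelial markers reached a group mean of 1 CPM, with sums of at most 1.98 and 1.76 CPM in any culture, and Col3a1, Dcn and Lum were at 0 in all groups. Of 7 immune markers, 2 reached it, with sums of 4.14 to 11.6 CPM, and Adgre1 was at 0 in all groups. Myo5b itself, counted over the whole gene, ranged from 160 to 230 CPM in control cultures. MYO5BΔIEC cultures held 101 to 169 CPM, MYO5B(G519R) cultures 136 to 173 CPM and Compound-1-treated cultures 87.2 to 149 CPM. Reads from mitochondrially encoded genes made up 6.41 to 10.4% of the control libraries and 3.79 to 6.63% of the others. Control replicate 1 stood apart: its log2 CPM correlated at r = 0.953 to 0.956 with the other controls, against 0.982 to 0.985 among these. The trend of expression on gene length, as the slope of the log2 deviation from the mean of all cultures per 10-fold length, was -0.52 to -0.44 in control replicates 2 to 4, 0.22 in control replicate 1 and 0 to 0.19 in all others. Control replicate 1 was thus near the induced cultures in this trend, and values without it are given where a call rests on it. It also differed in cell type markers. Its summed enterocyte markers were 2740 CPM against 12200 to 15200 in the other controls, and its Paneth markers 2310 against 4720 to 5710. Stem cell markers summed to 2250 against 4200 to 6290 CPM, and tuft cell markers to 65 against 17.9 to 23.1 CPM. Leaving it out thus also changes the cell content of the control group. The induced cultures held 4770 to 10700 CPM of enterocyte, 2220 to 3610 of Paneth, 511 to 2500 of stem cell and 14.2 to 29.7 of tuft cell markers. Their enterocyte, Paneth and stem cell sums lay below those of control replicates 2 to 4. Olfm4 had the highest mean of the stem cell markers in each group. The part of cell content in the results was not tested.

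In control enteroids the 10 genes spanned a wide range of levels per transcript length. Ccng1 was the most abundant at 57.4 ± 10.8 FPKM (fragments scaled to transcript length and library size; mean ± SD, n = 4), followed by Bax at 46.1 ± 10.3 and Cdkn1a at 40.0 ± 10 FPKM, whose spreads overlapped. Mdm2, Sesn1, Aen, Trp53inp1 and Phlda3 lay between 6.81 and 10.2 FPKM. Zmat3 at 2.47 ± 0.957 FPKM and Eda2r at 1.29 ± 0.778 FPKM were the lowest. In MYO5BΔIEC enteroids the order changed, and Cdkn1a at 132 ± 32.9 FPKM reached the level of Ccng1 at 142 ± 58.2 FPKM. All 10 genes passed the filter on low counts in every comparison.

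To ask whether the induced cultures carried a p53 response, each induced group was first set against control. In MYO5BΔIEC enteroids 8 of the 10 genes rose, by 1.41-fold (Aen) to 5.54-fold (Zmat3), and none fell (edgeR quasi-likelihood test, Benjamini-Hochberg adjusted p under 0.05). Of all 17951 genes tested 27.4% were called and 13.5% were called higher. The median log2 fold change was 1.43 over the 10 genes and -0.01 over all genes tested. In MYO5B(G519R) enteroids 4 of the 10 rose, Zmat3, Phlda3, Cdkn1a and Mdm2, with 26.8% of 17829 genes called and 13.1% called higher, and medians of 0.68 for the 10 genes and -0.05 for all. In Compound-1-treated MYO5BΔIEC enteroids 6 rose and 1, Sesn1, fell, where 29.4% of 17937 genes were called, 15.7% higher and 13.7% lower, with medians of 1.10 and -0.05. All 4 induced cultures lay above all 4 controls for 5, 7 and 7 of the 10 genes in the groups in this order, against 13%, 13.6% and 14.3% of all genes tested. In the last group Sesn1 lay below all controls, so that 8 of 10 genes did not overlap, against 27.9% of all genes. The 3 comparisons share the 4 control cultures and are not independent of each other.

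**Figure D1:**
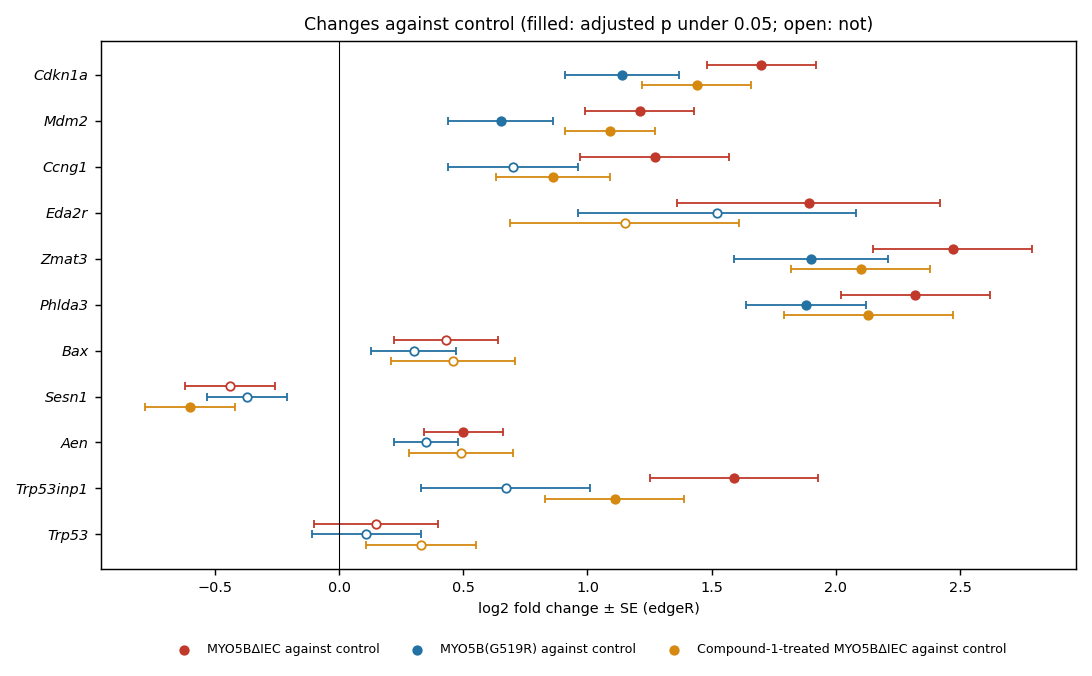
Log2 fold change against control (x axis, with SE bars from edgeR) of the 10 p53 target genes and of Trp53 (y axis) in the 3 induced groups, with filled points for an adjusted p under 0.05. Zmat3 and Phlda3 lie farthest to the right in each group, from 1.88 to 2.47, Bax is open in all 3, Sesn1 lies left of 0, and Trp53 lies between 0.11 and 0.33.

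Cdkn1a encodes p21, the inhibitor of cyclin-dependent kinases through which p53 stops the cell cycle. It is annotated on chromosome 17, 29090976 to 29100727 (+ strand, GRCm38; ENSMUSG00000023067). Windows from 250 bases before to 50 after a RefSeq start site were available for 8 of the 10 genes. That of Cdkn1a was the only one with 2 p53 consensus half-sites at most 13 bases apart. The stretch around them is shown because Cdkn1a is the best known target of p53. It lies just upstream of the annotated gene at chr17:29090871-29090972 on the + strand of GRCm38, with both half-sites in capitals.
Cdkn1a: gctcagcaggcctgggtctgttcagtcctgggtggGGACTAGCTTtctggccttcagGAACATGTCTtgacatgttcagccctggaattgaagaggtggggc
The first half-site started 73 bases before the upstream of the 2 annotated start sites and 2863 bases before the downstream one, and 12 bases separated it from the second. Such a pair, with a spacer of at most 13 bases, occurred in 24 of 32851 windows of the same size (0.0731%). The search allowed no mismatch. The bases directly after the second half-site miss the consensus only at their first base, and they stay in lower case.

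Cdkn1a rose in all 3 groups and no induced culture overlapped control. The control cultures held 194, 134, 140 and 114 CPM (replicates 1 to 4, scaled by the trimmed mean of M values, TMM). The MYO5BΔIEC cultures held 343, 541, 591 and 411, the MYO5B(G519R) cultures 307, 292, 459 and 226, and the Compound-1-treated cultures 338, 503, 431 and 304 CPM. Every induced culture was above the highest control, which was replicate 1. On the log2 scale, Cdkn1a rose by 1.70 ± 0.22 in MYO5BΔIEC (SE; edgeR adjusted p = 0.00148), by 1.14 ± 0.23 in MYO5B(G519R) (0.00746) and by 1.44 ± 0.22 in Compound-1-treated enteroids (0.00398). Another gene, AC167363.2, is annotated on the opposite strand over 1046 bases of Cdkn1a. It had at most 166 counts in any library against at least 3071 for Cdkn1a, and whether the counting used strand is not given in the sources used here.

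Mdm2, the ubiquitin ligase that degrades p53, lies on chromosome 10 at 117688875 to 117710758 (- strand). The controls were tight at 54.0, 51.3, 55.5 and 52.3 CPM. Levels in MYO5BΔIEC cultures were 69.9, 130, 160 and 132, the MYO5B(G519R) cultures 66.7, 66.8, 129 and 72.4, and the Compound-1-treated cultures 90.5, 114, 156 and 91.7 CPM. No induced culture overlapped control, yet in the MYO5B(G519R) group 3 of 4 reached at most 72.4 CPM and replicate 3 was far above. Mdm2 rose by 1.21 ± 0.22 in MYO5BΔIEC (edgeR adjusted p = 0.00348) and by 1.09 ± 0.18 in Compound-1-treated MYO5BΔIEC enteroids (0.00458) on the log2 scale. In MYO5B(G519R) enteroids the rise of 0.65 ± 0.21 was at the threshold (0.0424). It was 0.36 without replicate 3 (0.0341). The call held in 11 of 20 alternatives: it was lost without MYO5B(G519R) replicate 4 (0.0513), without control replicate 2, 3 or 4 (0.087 to 0.0971), in a fit blocked on replicate number (0.0507), with the trend on gene length removed (0.0617), with all 4 groups in 1 fit (0.0627) and by limma on FPKM (0.0534 and 0.0584).

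Ccng1 encodes cyclin G1, which recruits protein phosphatase 2A to MDM2, and lies on chromosome 11 at 40748552 to 40755311 (- strand). The controls held 151, 227, 243 and 209 CPM. Cultures of the MYO5BΔIEC group had 230, 586, 708 and 472, the MYO5B(G519R) cultures 275, 259, 547 and 262, and the Compound-1-treated cultures 300, 456, 472 and 273 CPM. Replicate 1 of the MYO5BΔIEC group lay inside the control range, and all other induced cultures lay above it. Ccng1 rose by 1.27 ± 0.30 (edgeR adjusted p = 0.0117) in MYO5BΔIEC and by 0.86 ± 0.23 (0.0194) in Compound-1-treated MYO5BΔIEC enteroids, the latter not without replicate 3 (0.0563) or control replicate 4 (0.0538). The MYO5B(G519R) value of 0.70 ± 0.26 did not pass (0.0759), although its groups did not overlap, and DESeq2 called it at 0.73 (0.0231).

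Single half-sites were found near the start sites of Mdm2, Ccng1, Bax, Aen and Sesn1, and 6 of the 8 genes with a window had at least 1 half-site. Across all genes with a window 9.55% of 27025 had one. The window of Eda2r and that of Phlda3 held none, and Zmat3 and Trp53inp1 had no window. The stretches of 3 genes with a half-site upstream of the annotated gene are shown, in the direction of transcription, because 2 of them rose in MYO5BΔIEC enteroids and Bax did not. They come from chr10:117710900-117710979, chr11:40755427-40755506 and chr7:45467055-45467134, all on the - strand of GRCm38, with the half-site in capitals.
Mdm2: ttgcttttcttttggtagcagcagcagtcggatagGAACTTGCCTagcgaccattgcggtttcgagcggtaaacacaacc
Ccng1: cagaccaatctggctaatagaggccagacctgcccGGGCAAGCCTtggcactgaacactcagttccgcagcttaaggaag
Bax: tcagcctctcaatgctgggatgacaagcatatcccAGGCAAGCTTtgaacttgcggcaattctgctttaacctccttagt
The half-site started 186, 185 and 201 bases before the start site of Mdm2, Ccng1 and Bax. A match describes these letters and is no measurement of binding.

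Zmat3 and Phlda3 had the largest rises of the 10 genes in MYO5BΔIEC and MYO5B(G519R) enteroids. Zmat3, on chromosome 3 at 32334792 to 32366014 (- strand), encodes a zinc finger protein that binds RNA. Its controls held 44.4, 26.8, 25.1 and 19.5 CPM, and again replicate 1 was the highest. In MYO5BΔIEC cultures the values were 82.6, 197, 207 and 151, the MYO5B(G519R) cultures 83.8, 86.8, 175 and 87.0, and the Compound-1-treated cultures 94.6, 129, 173 and 98.8 CPM. The lowest induced culture was above the highest control. On the log2 scale, Zmat3 rose by 2.47 ± 0.32 in MYO5BΔIEC (edgeR adjusted p = 0.00148), by 1.90 ± 0.31 in MYO5B(G519R) (0.00339) and by 2.10 ± 0.28 in Compound-1-treated enteroids (0.00398).

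Phlda3, on chromosome 1 at 135766119 to 135769136 (+ strand), encodes a pleckstrin homology domain protein that restrains AKT signalling. Its controls held 13.7, 10.1, 10.6 and 9.11 CPM. The MYO5BΔIEC cultures held 25.2, 77.0, 54.9 and 59.1, the MYO5B(G519R) cultures 33.5, 32.7, 62.0 and 32.1, and the Compound-1-treated cultures 24.3, 63.6, 71.9 and 31.0 CPM. No induced culture overlapped control. Phlda3 rose by 2.32 ± 0.30 (edgeR adjusted p = 0.00144), 1.88 ± 0.24 (0.00194) and 2.13 ± 0.34 (0.00415) on the log2 scale in the 3 groups in this order. Without control replicate 1, without MYO5B(G519R) replicate 3 and under every other alternative tried, the calls of Cdkn1a, Zmat3 and Phlda3 against control held.

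**Figure D2:**
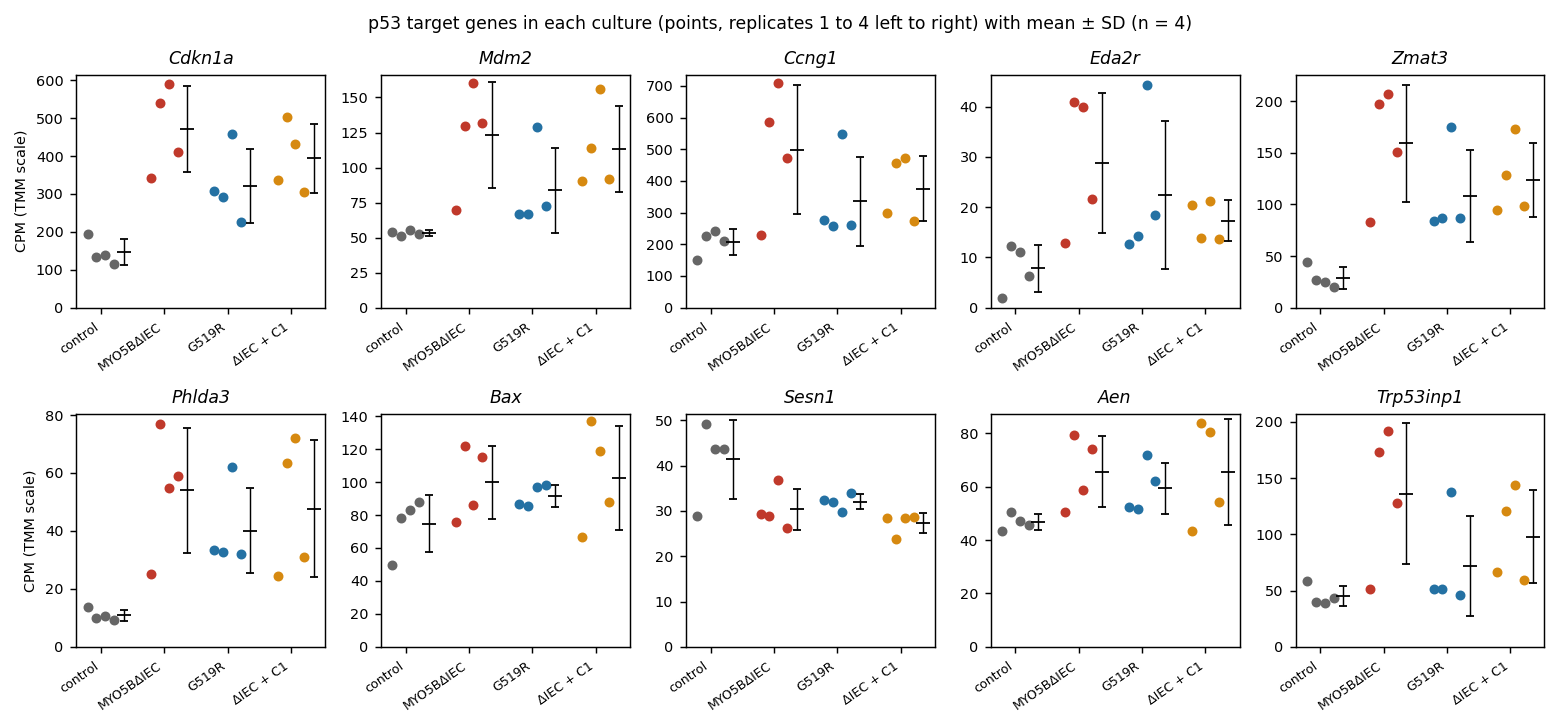
CPM (y axes, TMM scale, from 0) of each of the 10 p53 target genes in the 16 cultures (points, replicates 1 to 4 from left to right within each of the 4 groups named on the x axes; C1, Compound-1), with mean ± SD (n = 4) as black bars. Induced cultures lie above all controls for Cdkn1a, Mdm2, Eda2r, Zmat3 and Phlda3, while replicate 1 of MYO5BΔIEC is the lowest and replicate 3 of MYO5B(G519R) the highest of their groups for most genes.

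Eda2r, a receptor of the tumor necrosis factor receptor family, lies on chromosome X at 97333840 to 97377216 (- strand) and was the least expressed of the 10. The controls varied most, with 1.85, 12.2, 11 and 6.22 CPM. Levels in MYO5BΔIEC cultures were 12.8, 41.0, 39.9 and 21.6, the MYO5B(G519R) cultures 12.7, 14.2, 44.3 and 18.4, and the Compound-1-treated cultures 20.5, 13.9, 21.3 and 13.6 CPM. The lowest induced values were only just above the highest control. Eda2r rose by 1.89 ± 0.53 in MYO5BΔIEC enteroids (edgeR adjusted p = 0.0229), but not without MYO5BΔIEC replicate 2 (0.0698) or 3 (0.0631) or control replicate 4 (0.0675). The values of 1.52 ± 0.56 in MYO5B(G519R) (0.0691) and 1.15 ± 0.46 in Compound-1-treated MYO5BΔIEC enteroids (0.0823) missed the threshold, and both passed without control replicate 1, at 1.22 (0.0376) and 0.85 (0.0308), and with no filter on low counts (0.0416 and 0.0492). The first also passed in a fit blocked on replicate number (edgeR adjusted p = 0.024) and with all 4 groups in 1 fit (0.0336), and the second by DESeq2 (0.0238) and by limma on log2(FPKM + 1) (0.0469).

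Trp53inp1, on chromosome 4 at 11156431 to 11174379 (+ strand), encodes a nuclear protein that promotes p53-dependent arrest and apoptosis. The controls held 58.3, 40.2, 39.1 and 43.6 CPM. Cultures of the MYO5BΔIEC group had 51.5, 173, 192 and 128, the MYO5B(G519R) cultures 51.2, 51.6, 138 and 46.3, and the Compound-1-treated cultures 67.0, 121, 144 and 59.8 CPM. Replicate 1 of the MYO5BΔIEC group and 3 of 4 MYO5B(G519R) cultures lay within the control range. Trp53inp1 rose by 1.59 ± 0.34 in MYO5BΔIEC (edgeR adjusted p = 0.00708) and by 1.11 ± 0.28 in Compound-1-treated MYO5BΔIEC enteroids (0.0158), the latter not without control replicate 3 (0.0526). The MYO5B(G519R) value of 0.67 ± 0.34 did not pass (0.174). It was 0.13 without replicate 3 (0.591) and passed at 0.72 with donor sex as a term (0.0445).

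Bax did not pass in any group. It permeabilizes the outer mitochondrial membrane and lies on chromosome 7 at 45461697 to 45466898 (- strand). Its controls held 49.4, 78.3, 83.3 and 88.0 CPM. In MYO5BΔIEC cultures the values were 76.0, 122, 86.1 and 115, the MYO5B(G519R) cultures 86.4, 85.6, 96.7 and 98.0, and the Compound-1-treated cultures 66.6, 137, 119 and 87.9 CPM. Gm45808, annotated on the same strand over 915 bases of Bax, had 0 counts. All groups overlapped, control replicate 1 was the lowest culture of all, and the log2 fold changes of 0.43 ± 0.21 (edgeR adjusted p = 0.163), 0.30 ± 0.17 (0.227) and 0.46 ± 0.25 (0.186) did not pass. With the trend on gene length removed from each culture, Bax was called higher in all 3 groups, by 0.65 (0.0174), 0.51 (0.00939) and 0.70 (0.0241).

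Aen, on chromosome 7 at 78895854 to 78911209 (+ strand), encodes an exonuclease that acts in apoptosis. The controls held 43.3, 50.6, 47.1 and 45.8 CPM. The MYO5BΔIEC cultures held 50.5, 79.3, 58.8 and 74.1, the MYO5B(G519R) cultures 52.2, 51.5, 71.8 and 62.2, and the Compound-1-treated cultures 43.3, 83.8, 80.3 and 54.1 CPM. The MYO5BΔIEC group touched the control range through replicate 1, and the MYO5B(G519R) group lay just above it. Aen rose in MYO5BΔIEC enteroids by 0.50 ± 0.16 (edgeR adjusted p = 0.0403). This call was the weakest of the 8: it was lost without MYO5BΔIEC replicate 2 or 4 or control replicate 2, 3 or 4 (0.0673 to 0.127), with the trend on gene length removed (0.132), with no filter on low counts (0.0575), with all 4 groups in 1 fit (0.0648) and in a fit blocked on replicate number (0.0608). The other groups did not pass at 0.35 ± 0.13 (0.0745) and 0.49 ± 0.21 (0.102), but did so in MYO5B(G519R) without control replicate 1 (0.0396), by DESeq2 (0.04) and with donor sex as a term (0.0416), and without replicate 1 in Compound-1-treated MYO5BΔIEC enteroids (0.0274).

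Sesn1 went the other way. It encodes sestrin 1, a stress protein that inhibits the growth regulator mTORC1 and that FOXO factors also control, and lies on chromosome 10 at 41809935 to 41908424 (+ strand). The controls held 28.9, 49.2, 43.7 and 43.7 CPM. Levels in MYO5BΔIEC cultures were 29.2, 28.9, 36.9 and 26.2, the MYO5B(G519R) cultures 32.3, 32.0, 29.8 and 33.9, and the Compound-1-treated cultures 28.4, 23.9, 28.4 and 28.6 CPM. 9930024M15Rik, annotated over 2584 bases of Sesn1 on the same strand, had at most 21 counts. All 12 induced cultures lay below control replicates 2 to 4, and control replicate 1 lay among them. Sesn1 fell by 0.60 on the log2 scale in Compound-1-treated MYO5BΔIEC enteroids (SE 0.18, edgeR adjusted p = 0.0289). That call was lost without Compound-1-treated replicate 2, 3 or 4 or control replicate 2, 3 or 4 (0.0561 to 0.0885) and in a fit blocked on replicate number (0.0641). The differences of -0.44 ± 0.18 in MYO5BΔIEC (0.0951) and -0.37 ± 0.16 in MYO5B(G519R) enteroids (0.109) did not pass. Without control replicate 1 both passed, at -0.58 (0.00568) and -0.48 (0.00146).

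Whether the p53 transcript itself passed depended on control replicate 1. Trp53, on chromosome 11 at 69580359 to 69591873 (+ strand), held 174, 87.4, 93.5 and 97.4 CPM in the control cultures. The MYO5BΔIEC values were 128, 109, 94.0 and 167, the MYO5B(G519R) values 112, 114, 114 and 148, and the Compound-1-treated values 134, 159, 138 and 139 CPM. Control replicate 1 was the highest culture of all, and the other 3 controls lay below every MYO5B(G519R) and every Compound-1-treated culture. The log2 differences against control were 0.15 ± 0.25, 0.11 ± 0.22 and 0.33 ± 0.22 and did not pass (edgeR adjusted p = 0.699, 0.743 and 0.271). Without control replicate 1, an alternative chosen after the values were seen, Trp53 was higher by 0.43 ± 0.11 in MYO5B(G519R) (edgeR adjusted p = 0.00808) and by 0.64 ± 0.12 in Compound-1-treated MYO5BΔIEC enteroids (0.00217), and the value of 0.43 ± 0.17 in MYO5BΔIEC enteroids did not pass (0.0698). Protein levels of p53 and marks of DNA breaks were not analysed here.

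With the 12 induced cultures set as one against the 4 controls, 8 of the 10 genes rose, Sesn1 fell by 0.47 on the log2 scale (SE 0.12, edgeR adjusted p = 0.00497), and Bax did not pass (0.39 ± 0.18, 0.0956). This fit takes the 12 induced cultures as independent, and its p-values do not account for mice that groups may share. Of 19000 genes tested, 40.4% were called, 19.2% higher and 21.2% lower. The rises ran from 0.44 ± 0.16 for Aen (0.0392) to 2.15 ± 0.29 for Zmat3 (6.04e-05). The call of Aen held in 16 of 28 alternatives and was lost when any 1 of the 4 controls was left out (0.0595 to 0.0939). For 5 of the 10 genes, Cdkn1a, Mdm2, Eda2r, Zmat3 and Phlda3, all 12 induced cultures lay above all 4 controls, as was so for 7.81% of all genes tested.

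Whether the 2 models differed from each other was tested directly. Of the 10 genes 9 were lower in MYO5B(G519R) than in MYO5BΔIEC enteroids, with a median log2 difference of -0.50, but none was called. The edgeR test called 1 of 17943 genes in this comparison (0.00557%), with 772 (4.3%) at an unadjusted p under 0.05, and DESeq2 called none of the 10 either. The largest differences were -0.92 ± 0.43 for Trp53inp1 (edgeR adjusted p = 0.838) and -0.57 ± 0.33 for Ccng1 (0.838), and Cdkn1a differed by -0.56 ± 0.23 (0.838). Without MYO5B(G519R) replicate 3 the differences were larger, at -1.45 for Trp53inp1, -0.93 for Eda2r and -0.91 for Ccng1, and still none was called (0.345 to 0.729 over the 10 genes by edgeR). With all cultures the ranges of both groups overlapped for all 10 genes, and only 1.85% of all genes tested did not overlap.

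Compound-1 was compared with vehicle in MYO5BΔIEC enteroids to see whether the agonist changed these levels. None of the 10 genes was called, and neither was any of 18037 genes tested (0% by edgeR, 1355 or 7.51% at an unadjusted p under 0.05). DESeq2 called 100 genes and edgeR with no filter on low counts 12, with none of the 10 among them. The difference was negative for 9 of 10, with a median of -0.25. It was largest for Eda2r at -0.77 ± 0.34 (edgeR adjusted p = 0.658), followed by Trp53inp1 at -0.51 ± 0.38, Ccng1 at -0.45 ± 0.31, Zmat3 at -0.40 ± 0.28 and Cdkn1a at -0.29 ± 0.22. Bax, Aen and Mdm2 lay nearest to 0, at 0.01 ± 0.23, -0.04 ± 0.23 and -0.15 ± 0.25. These errors leave room for moderate changes in either direction.

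Cultures of one group differed widely in the 10 genes, and most of the genes moved together. In each culture the log2 CPM of each gene was taken as a deviation from the mean of its group. Averaged over the 10 genes, the deviation was 0.60 in MYO5B(G519R) replicate 3, where 9 of 10 genes were above the group mean, and -0.71 in MYO5BΔIEC replicate 1, where 0 of 10 were. Compound-1-treated replicate 3 was at 0.40 with 10 of 10 above, and the 4 controls had both signs. Over the 16 cultures 40 of the 45 gene pairs had a positive Pearson correlation of their deviations, with a median of 0.59 and a range of -0.36 to 0.95, as a description, since the genes share libraries and scaling. The highest was that of Mdm2 with Trp53inp1 (0.95), and all 5 negative pairs held Sesn1, the lowest with Cdkn1a (-0.36).

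**Figure D3:**
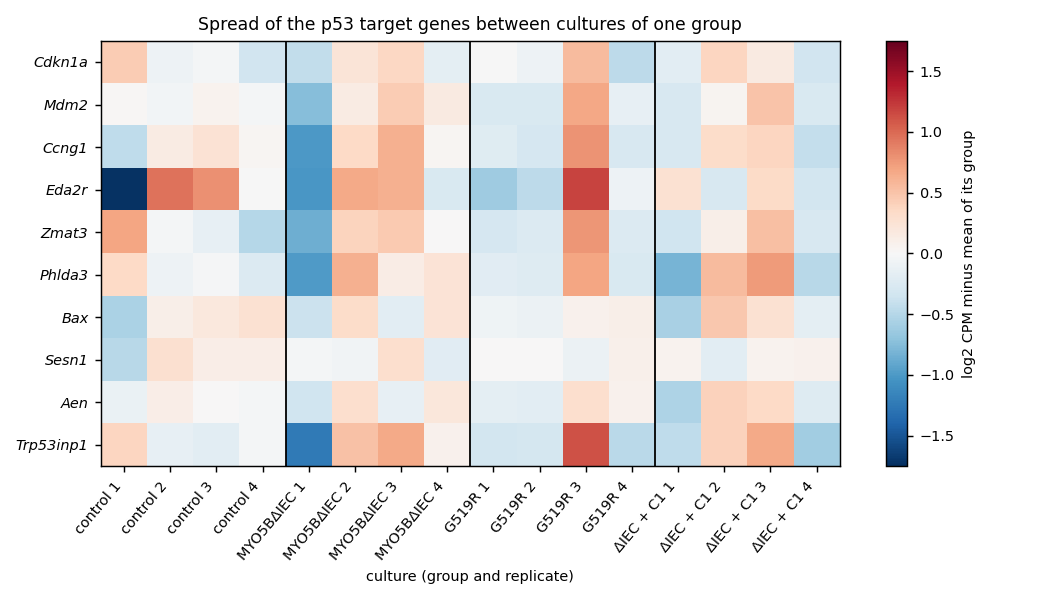
Deviation of the log2 CPM from the mean of the group (color, red above and blue below) for the 10 p53 target genes (rows) in the 16 cultures (columns, by group and replicate). MYO5BΔIEC replicate 1 is blue in most rows (mean -0.71), MYO5B(G519R) replicate 3 is red in 9 of 10 rows (mean 0.60), and Eda2r ranges most among the controls, from -1.73 to 0.95.

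Of 13535 genes with a mean of at least 1 CPM, those whose deviations most resembled the mean of the 10 were Exoc4 (r = 0.97), Ggta1 (0.96) and 9230114K14Rik (0.95). For Cdkn1a alone they were Sphkap (0.91), Tap1 (0.91) and Exoc2 (0.90). The level of proliferation genes also differed between cultures of one group. The summed level of 14 cell cycle genes that p21 represses was 1580 CPM in MYO5B(G519R) replicate 3 against 1950 to 2050 in the other 3. It was 897 CPM in Compound-1-treated replicate 3 against 1590 to 1740 in the others. In MYO5BΔIEC cultures it was 1350 and 1190 CPM in replicates 2 and 3, which had the highest mean of the 10 genes, against 1610 and 1740 in replicates 1 and 4, of which replicate 1 had the lower mean (-0.71 against 0.03). In the controls it was 1830, 2090, 2130 and 1990 CPM (replicates 1 to 4), where the mean deviations of the 10 genes were -0.14, 0.12, 0.10 and -0.08, so that both were higher in the same 2 cultures. The part of this level in the results was not tested. Of 5 stem cell markers 1 was called lower in each induced group, Olfm4, with a mean of 3740 CPM in control against 777 CPM (MYO5BΔIEC), 1210 CPM (MYO5B(G519R)) and 673 CPM (Compound-1), and the median changes of the 5 were 0.02, 0.30 and -0.30 on the log2 scale. The other 4 were not called, and 13.8%, 13.7% and 13.7% of all genes were called lower in these groups.

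The other genes of the pathway were taken from lists. Of 28 other p53 targets, 27 were tested in MYO5BΔIEC enteroids, where 17 rose and 0 fell (13.5% and 13.8% of all genes; median change 0.95 on the log2 scale). In MYO5B(G519R) enteroids 11 of 26 rose and 0 fell (13.1% and 13.7% of all genes, median 0.60). In Compound-1-treated MYO5BΔIEC enteroids 16 of 27 rose and 0 fell (15.7% and 13.7% of all genes, median 0.81). Without control replicate 1 the counts of rises were 19, 17 and 17, with 1 lower in each. Calls over all genes grew as well, from 4910, 4778 and 5275 to 7474, 8146 and 7459 in the 3 groups. Plk2, a polo-like kinase, rose from 13 ± 2.80 CPM in control to 52.4 ± 17.7 in MYO5BΔIEC (log2 fold change 2.02 ± 0.27, edgeR adjusted p = 0.00167) and 33.8 ± 16.9 in MYO5B(G519R) enteroids (1.38 ± 0.32, 0.0125). Psrc1, which acts at the mitotic spindle, rose from 26.9 ± 1.56 to 79.4 ± 27.4 (1.57 ± 0.24, 0.00207) and 58.9 ± 17.1 CPM (1.13 ± 0.19, 0.00361).

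**Figure D4:**
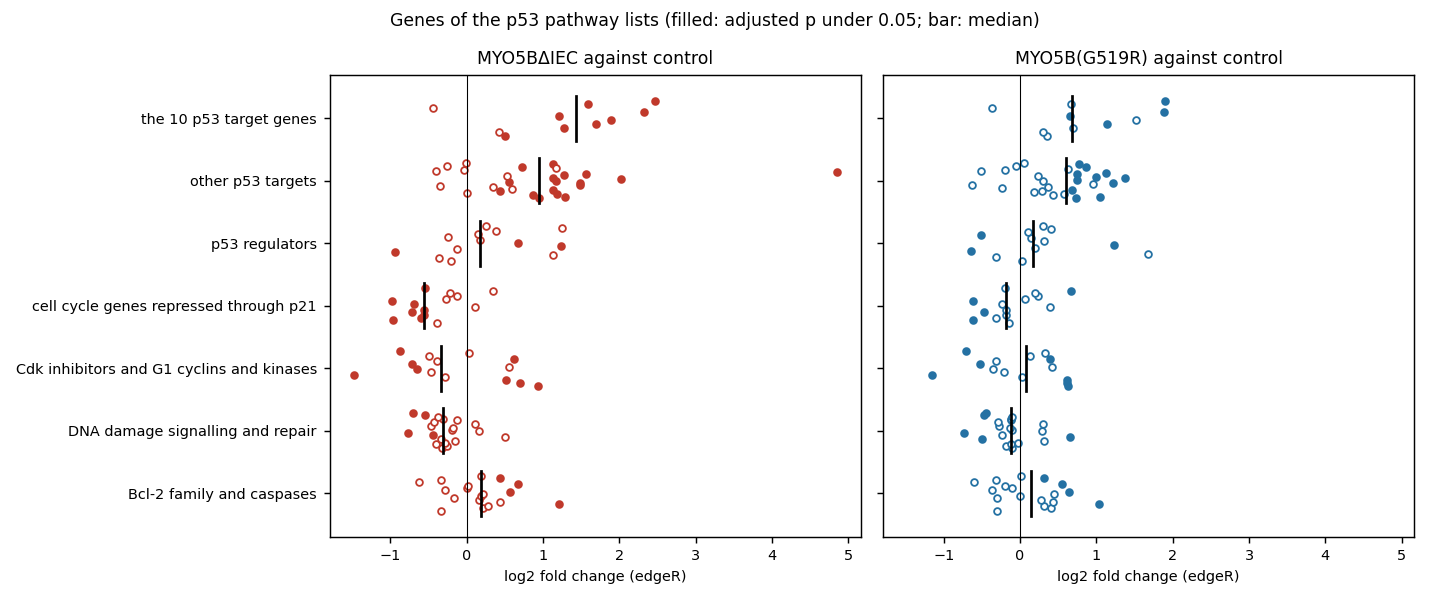
Log2 fold change against control (x axis, edgeR) in MYO5BΔIEC (left) and MYO5B(G519R) enteroids (right) for the genes of 7 lists (rows), 1 point per gene, filled for an adjusted p under 0.05, with the list's median as a bar. The 10 p53 target genes (medians 1.43 and 0.68) and the other p53 targets (0.95 and 0.60) lie mostly right of 0, and the cell cycle genes that p21 represses have medians of -0.55 and -0.18.

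The point at 4.85 among the other targets is Ptprv, at 0.0185 CPM in control and 0.601 CPM in MYO5BΔIEC enteroids. Its control level was under the limit of 3 counts, so its fitted change is no measure of size.

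Regulators of p53 were called about as often as all genes, and the counts moved with control replicate 1 and the gene length trend. In MYO5BΔIEC enteroids 2 of 13 tested rose and 1 fell (median 0.17). In MYO5B(G519R) enteroids 1 of 12 rose and 2 fell (median 0.17). In Compound-1-treated MYO5BΔIEC enteroids 2 of 12 rose and 2 fell (median 0.26). When control replicate 1 was left out, the counts called higher were 4, 5 and 6, with 2 lower in each group (medians 0.43, 0.33 and 0.35). With the gene length trend removed, 1 rose and 3 fell in each group (medians 0.07, 0.11 and -0.04). Of all genes 27.4%, 26.8% and 29.4% were called in the 3 groups with all controls. Without control replicate 1 more were called, at 7474 of 17783, 8146 of 17647 and 7459 of 17718 genes tested. Hipk2, a kinase that phosphorylates p53, rose in both models, from 40.4 ± 6.64 CPM in control to 94.1 ± 26.5 in MYO5BΔIEC (1.23 ± 0.23, edgeR adjusted p = 0.00408) and 94.7 ± 19.7 in MYO5B(G519R) enteroids (1.23 ± 0.18, 0.00249). Chek1, the checkpoint kinase of replication stress, fell from 36.8 ± 3.56 CPM to 19.0 ± 4.41 and 23.6 ± 4.77 CPM, at log2 fold changes of -0.94 ± 0.18 (0.00419) and -0.64 ± 0.16 (0.0173).

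Of the 14 cell cycle genes that p21 represses, 8 fell and 0 rose in MYO5BΔIEC enteroids (median -0.55). In MYO5B(G519R) enteroids 3 fell and 1, Plk1, rose (median -0.18), and in Compound-1-treated MYO5BΔIEC enteroids 3 fell and 1 rose (median -0.54). In a fit blocked on replicate number the first of these counts was 4, and DESeq2 gave 6 falls for the third. In MYO5B(G519R) enteroids the blocked fit gave 1 fall, and leaving out replicate 3 of that group gave 2 falls and 2 rises. With the gene length trend removed that group had 4 falls and 2 rises. Of all genes tested, 13.8%, 13.7% and 13.7% were called lower and 13.5%, 13.1% and 15.7% higher in the 3 groups. Cdk1, the mitotic kinase, fell from 155 ± 30.9 CPM to 78.2 ± 12.4 in MYO5BΔIEC (-0.98 ± 0.18, edgeR adjusted p = 0.00411) and 101 ± 15.3 in MYO5B(G519R) enteroids (-0.62 ± 0.17, 0.026). Birc5, which encodes survivin, fell from 107 ± 12.6 to 54.9 ± 12.8 (-0.96 ± 0.18, 0.00396) and 70.0 ± 13.8 CPM (-0.62 ± 0.16, 0.0178). Mki67 did not pass in either model, at -0.22 ± 0.14 (0.256) and 0.20 ± 0.12 (0.221).

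Among 14 cyclin-dependent kinase inhibitors and G1 cyclins and kinases, 4 rose and 4 fell in MYO5BΔIEC enteroids. The counts were 4 and 3 in MYO5B(G519R), and 4 and 5 with Compound-1 (medians -0.34, 0.07 and -0.33 in this order), where 27.4%, 26.8% and 29.4% of all genes were called. Without MYO5B(G519R) replicate 3 the counts in that group were 1 and 1, and in a fit blocked on replicate number 1 and 2, with 2 rises in MYO5BΔIEC. Ccnd1 and Ccnd2 are named as the highest changes called in both models and do not stand for all D cyclins. Ccnd1 rose from 121 ± 21.4 CPM to 229 ± 39.3 (0.93 ± 0.18, edgeR adjusted p = 0.00441) and 187 ± 47.8 (0.63 ± 0.19, 0.0362), and Ccnd2 from 343 ± 54.8 to 555 ± 88.0 (0.70 ± 0.17, 0.0142) and 525 ± 115 CPM (0.61 ± 0.18, 0.031). Ccne2, the cyclin E of entry into S phase, fell from 27.1 ± 1.16 CPM to 9.70 ± 3.08 (-1.48 ± 0.21, 0.0017) and 12.1 ± 1.20 (-1.16 ± 0.12, 0.00177). Pcna, the sliding clamp of DNA replication and also a p53 target, fell from 463 ± 107 CPM to 252 ± 9.73 (-0.87 ± 0.19, 0.00757) and 282 ± 43.4 (-0.71 ± 0.20, 0.0246).

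In the fits reported, genes of DNA damage signalling and repair were called no more often than all genes. Of 20 tested, 0 rose and 4 fell in MYO5BΔIEC (median -0.32), 1 rose and 4 fell in MYO5B(G519R) (median -0.12) and 0 rose and 4 fell in Compound-1-treated MYO5BΔIEC enteroids (median -0.38). The counts of falls depended on the gene length trend: with it removed they were 11, 8 and 11. Leaving out control replicate 1 gave 1, 3 and 1 rises and 8, 4 and 3 falls, while more of all genes were called in each group. Among all genes 27.4%, 26.8% and 29.4% were called in the 3 groups. Of these genes 13.8%, 13.7% and 13.7% of all tested were lower and 13.5%, 13.1% and 15.7% higher. Nbn, of the complex that senses double-strand breaks, fell from 44.1 ± 1.10 CPM to 25.7 ± 6.18 in MYO5BΔIEC (-0.77 ± 0.16, edgeR adjusted p = 0.00729) and 26.6 ± 2.15 in MYO5B(G519R) enteroids (-0.73 ± 0.10, 0.00222). Xrcc6, which encodes Ku70 of end joining, fell from 82.0 ± 11.5 to 50.1 ± 8.64 (-0.70 ± 0.16, 0.00952) and 60.1 ± 8.34 CPM (-0.45 ± 0.14, 0.0403).

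In the list of Bcl-2 family members and caspases 4 of 18 tested rose and 0 fell in each of the 3 groups (medians 0.19, 0.14 and 0.10), against 13.5%, 13.1% and 15.7% of all genes called higher. Leaving out control replicate 1 gave 5, 8 and 8 rises and 3, 4 and 1 falls, while more of all genes were called in each group. Bcl2l1, which encodes the survival protein BCL-XL, rose from 26.5 ± 2.82 CPM to 61.1 ± 7.37 in MYO5BΔIEC (1.21 ± 0.14, edgeR adjusted p = 0.00141) and 54.5 ± 10.3 in MYO5B(G519R) enteroids (1.04 ± 0.15, 0.00229). Casp9, the initiator caspase of the mitochondrial pathway, rose from 21.7 ± 1.17 to 34.3 ± 4.22 (0.67 ± 0.14, 0.00665) and 31.9 ± 2.24 CPM (0.55 ± 0.11, 0.00596).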

How the data were processed

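RNA of 16 jejunal enteroid cultures, 4 from each of 4 groups, was sequenced. Per the methods, the authors mapped reads to GRCm38 (mm10) and deposited raw read counts per gene (HTSeq 0.6.1) together with FPKM, which the authors made from counts and gene length. The submitters' notes name STAR 2.5, TopHat and DESeq2; the annotation version and strand setting are not given in the sources used here. FPKM served only for levels between genes and as an alternative. Counts were tested in edgeR 4.0.16 (R 4.3.3) with the quasi-likelihood F test after TMM scaling, on genes that reached 10 counts in 2 or more of the compared libraries, and p-values were adjusted by Benjamini-Hochberg over all genes tested, with calls at 0.05. Each comparison was fitted on its own groups, and the 12 induced cultures against control in 1 fit of all 16. The SE is the log2 fold change over the root of F. Standard errors and p-values cover the spread between cultures. Groups do not overlap where the lowest CPM of one exceeds the highest of the other.

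The 10 genes and all lists were chosen with earlier results of these data known. The genes named besides the 10 and Trp53 were, per list, up to 2 with the highest and 2 with the lowest log2 fold change in MYO5BΔIEC among those called the same way in both models with at least 1 CPM, and the 3 most alike genes by Pearson correlation. Col3a1, Dcn, Lum, Adgre1, Mki67, Plk1, Ptprv, AC167363.2, Gm45808 and 9930024M15Rik were named after their values were seen. Deviations of same-numbered cultures correlated at -0.18 to 0.38 between groups. The highest were MYO5BΔIEC with MYO5B(G519R) in replicates 4 (0.38, at most -0.08 with other numbers) and 3 (0.27 against 0.05). Next to them was MYO5B(G519R) with Compound-1-treated MYO5BΔIEC in replicate 3 (0.32 against -0.01). The fit without a replicate block is the one reported, and the blocked fit is given as an alternative. Alternatives were DESeq2 1.42.0, DESeq2 size factors in edgeR, other filters, mitochondrially encoded genes out of the library sizes, robust empirical Bayes, a replicate block, donor sex read from Xist and Y-linked genes, removal of the gene length trend, limma 3.58.1 on log2(FPKM + 1) and log2(FPKM + 0.1), all groups in 1 fit and each culture left out. Promoter windows came from RefSeq (GRCm38.p6), and the p53 consensus half-site was searched by name, 10 bases long, on both strands (it is its own reverse complement).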

Additional observations from a re-analysis of the deposited data

Results flagged for a closer look

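Among 44 sets of 4 cultures (the 10 genes and Trp53 in each group), 8 had 1 culture far from the other 3. For 1 set alone chance gives about 1 in 20. The 44 sets share cultures and most of the genes moved together, so the count of 8 cannot be compared with that rate. The measure is the gap to the nearest other culture over the range of the group, with a critical value of 0.829. In 5 of the 8 this was MYO5B(G519R) replicate 3, the highest of its group: 0.909 for Mdm2 (129 CPM), 0.944 for Ccng1 (547 CPM), 0.964 for Zmat3 (175 CPM), 0.954 for Phlda3 (62.0 CPM) and 0.943 for Trp53inp1 (138 CPM). The same culture had the lowest summed level of cell cycle genes of its group (1580 CPM). Its part in the result was not tested. Sesn1 was low in Compound-1-treated MYO5BΔIEC replicate 2 (0.961, 23.9 CPM). Trp53 was high in control replicate 1 (0.885, 174 CPM), the library that stood apart from the other controls, and in MYO5B(G519R) replicate 4 (0.938, 148 CPM).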

How the results depend on the processing

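The number of the 10 genes called kept within 1.5 times of the reported one under all alternatives but 1: in MYO5B(G519R) against control, 4 were called, and 7 without control replicate 1. Over all genes 4778 were called in that comparison, and 8146 without control replicate 1. With 1 culture left out, the count ran from 6 to 9 in MYO5BΔIEC, 3 to 7 in MYO5B(G519R), 5 to 8 in Compound-1-treated MYO5BΔIEC and 7 to 10 in the induced cultures together, each against control. In fits with a replicate block the counts were 7, 4, 6 and 10, and the block ended the calls of Aen in MYO5BΔIEC (adjusted p = 0.0608 by edgeR), Mdm2 in MYO5B(G519R) (0.0507) and Sesn1 in Compound-1-treated enteroids (0.0641); it newly called Eda2r in MYO5B(G519R) (0.024) and Bax in the induced cultures together (0.0313). No direction against control reversed for any of the 10 genes. Directions reversed only between Compound-1 and vehicle, near 0: Bax was -0.02 with the block, 0 with donor sex as a term and 0 by limma with either pseudocount, and with 1 culture left out Bax ran from -0.17 to 0.16, Phlda3 from -0.48 to 0.02, Aen from -0.19 to 0.11 and Mdm2 from -0.35 to 0. With the 12 induced cultures together, Aen lost its call with the gene length trend removed (0.159), by limma on log2(FPKM + 1) (0.0505) and without 10 of the 16 cultures, each left out in turn (0.0519 to 0.0939), and Trp53inp1 without control replicate 3 (0.0521). The gene length trend of control replicates 2 to 4 differed from that of all other cultures, and the counts of DNA repair genes called lower moved with it, from 4 to 11 in MYO5BΔIEC; the cause was not tested. With 4 cultures in a group, changes near 0.4 on the log2 scale, such as those of Bax, Sesn1 and Aen, lay at the edge of what was called. Eda2r, at 1.85 to 12.2 CPM in control, rested on the fewest reads.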
